A study of Mus musculus with 3 samples.

Results

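The genes described here are immediate early genes, kinases of the mitogen-activated protein kinase (MAPK) cascades, receptors of the epidermal growth factor (EGF) family and the inhibitors that feed back on them, in mouse four-cell embryos. The list holds 33 genes. In the array annotation 32 of them were found by name, and Jund was found under its older name Jund1. They have 57 probes at 147 spots, on an array of 27670 genes. The list groups genes by function, apart from Errfi1, which was added because of its ratio on these arrays. For that reason the ratio of Errfi1 is given as a description, with no p-value.

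The HP embryos came from mouse oocytes held under high hydrostatic pressure (HP) of 20 MPa for 60 min at 37 °C. The control embryos came from oocytes kept in the same way without pressure. Both kinds of oocyte were then fertilised by injection of a sperm cell (ICSI) according to the sample labels, while the series title speaks of in vitro fertilisation, and were cultured to the four-cell stage. The labels used here give no mouse strain, age or transgene for either group. The 3 HP replicates were pools of 44, 30 and 37 embryos, and the 3 control replicates pools of 36, 33 and 24, so each value is a mean over many embryos. Each of 3 two-colour arrays held the HP pool, labelled with Cy5, and the control pool of the same replicate number, labelled with Cy3. Dye and treatment ran the same way on every array and cannot be told apart.

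Immediate early genes are transcribed within minutes of a growth factor or stress signal, without new protein synthesis, and their messages are short-lived. The signal often runs from an ErbB receptor through Ras and a chain of kinases to transcription factors of the Fos, Jun and Egr families. The same signal induces its own brakes: Errfi1 binds the kinase domain of ErbB receptors, Sprouty proteins block signalling between the receptor and the kinases, and Dusp phosphatases remove the activating phosphates from the MAPKs. In the mouse egg the kinase Mos drives the MAPK cascade that holds metaphase arrest, and the stored Mos message is lost after fertilisation.

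A probe was counted as above background in a pool when the scanner software called more than 0.5 of its spots well above background. By this measure 20 of the 33 genes were above background in at least 1 of the 6 pools, and 13 were above it in none. How many genes of the whole array met this measure was not counted, so 20 of 33 is not read as many or few. The 13 were the Fos-family genes Fosb and Fosl1, the AP-1 subunit Jun, the stress-induced factor Atf3, the zinc finger factor Klf6, the nuclear receptor Nr4a2, Ier3, the kinases Mos, Map3k5, Mapk3 (ERK1) and Mapk8 (JNK1), and the receptors Egfr and Erbb2. Egfr had 6 probes and Mapk8 had 5, none of them above background in any pool. Over the 25 probes of the 13 genes the normalized log2 signal was 6.12 to 6.37 in HP pools and 6.18 to 6.41 in control pools, and no log2 ratio on an array was below −0.14 or above 0.16. A probe that is not well above background gives only a bound on the message, so these genes cannot be called absent.

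Whether a gene could be tested depended on its signal. A gene was tested when 1 channel of a probe was above background on 2 or all 3 of the arrays, which held for 15 of the 33 genes. Over the whole array 7248 genes passed, or 26.2%. Another 5 were above background in some pool without passing: Fos in HP pool 1, Fosl2 in control pool 3, Ier2 in control pool 2, Egr1 in the HP and control pools of replicate 2, and the kinase Mapkapk2 in those of replicate 1. Mapkapk2, which is activated by p38, was at 6.46, 6.35 and 6.33 in HP pools, against 6.95, 6.31 and 6.41 in control pools. Control pool 1 was its high pool, and the groups overlapped.

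**Figure D1:**
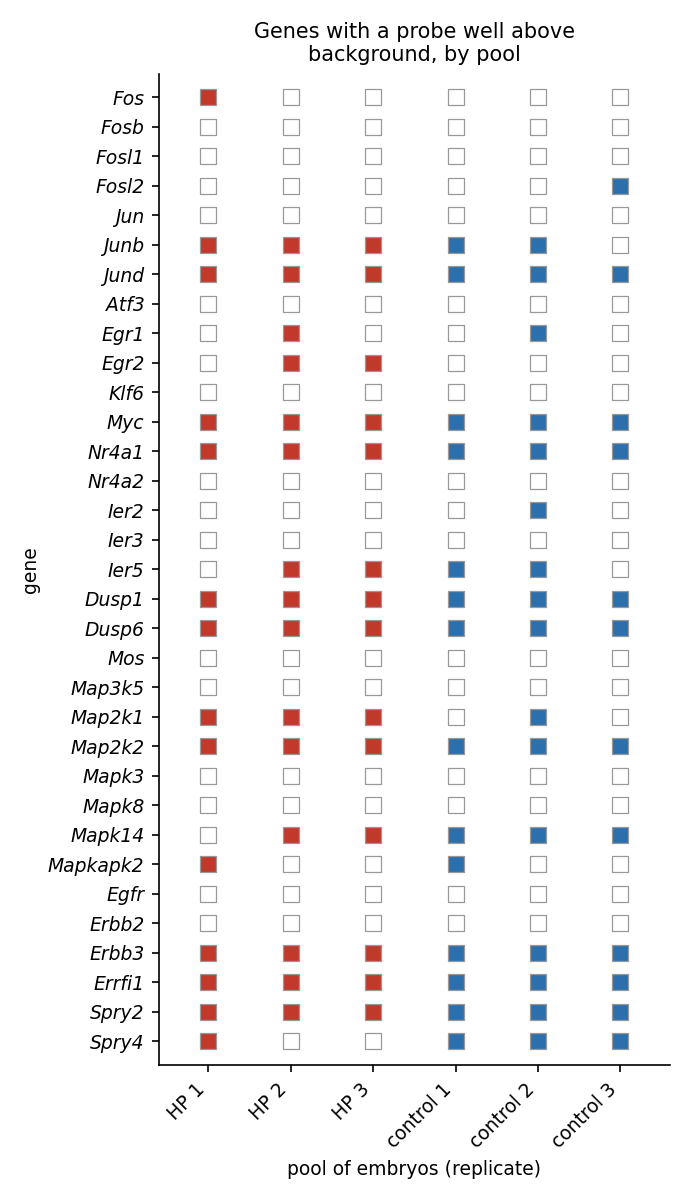
Detection of the 33 genes (rows) in 3 HP pools (left, red) and 3 control pools (right, blue). A filled square marks a pool in which at least 1 probe of the gene was well above background, which held for 20 genes in at least 1 pool.

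Over the whole array, between 17.5% and 19.9% of spots were well above background in the HP pools, against 18.5% to 23.2% in the control pools, and no spot was saturated. Over the tested genes HP pools 2 and 3 were the most alike, with an SD of 0.231 for their log2 difference, against 0.463 to 0.642 for every other pair of pools. Of 12 markers of the oocyte and cleavage embryo, 6 (Bmp15, Btg4, Dppa3, Gdf9, Oog1 and Zp3) were above background in at least 2 HP pools, and 6 in at least 2 control pools. The summed linear signal of the 12 was 19400 to 34600 in HP pools and 13000 to 16300 in control pools, and its part in the results below was not tested. Nlrp5, Ooep, Padi6, Zar1 and Zp2 were above background in no pool. For cumulus and granulosa cells 1 of 12 markers (Amhr2) was above background in at least 2 pools of either kind. The sum of those 12 was 1780 to 1880 in HP pools and 1680 to 1830 in control pools. Prm1 was the 1 of 8 sperm markers above background in at least 2 HP pools, and the sum of the 8 was 634 to 656 in HP pools and 645 to 665 in control pools. Of 6 markers of the later trophectoderm none was above background in at least 2 pools of either kind. No gene of the array passed an adjusted p of 0.05 (limma, 0 of 7248 or 0.0%, lowest adjusted p = 0.174), while an unadjusted p under 0.05 was reached by 526 genes higher in HP and 816 lower in HP. All p-values rest on the spread between these pools alone, and the number of arrays limits the precision.

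Among the receptor feedback genes, Errfi1 had the highest ratio of the 15 tested genes. It was measured by 1 spot of 1 probe, a 60-base oligonucleotide at chr4:149857959-149858018 on the plus strand (mm7, the build of the array design). Its first 30 bases are shown because the widest difference between the groups rests on them.
Errfi1 probe: ctattcagtatttcctggggattgtttgct

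The normalized log2 signal of Errfi1 was 7.98, 8.07 and 8.04 in HP pools 1, 2 and 3, against 6.34, 6.07 and 6.84 in control pools 1, 2 and 3. The HP pools lay close together, all 3 control pools were lower and spread more widely, and the groups did not overlap. The probe was above background in all 6 pools. The mean was 8.03 ± 0.04 in HP pools and 6.42 ± 0.39 in control pools (SD, n = 3 each). The log2 ratio of HP over control was 1.65, 1.996 and 1.19 on arrays 1, 2 and 3, with a mean of 1.61 ± 0.19 (moderated standard error), or 3.06-fold. With the ratios computed by the scanner software the 3 values were 3.92, 4.05 and 2.46, with a mean of 3.48. Apart from these and the series table, which holds the same ratios, the mean over the other settings ran from 1.12 with median centring to 2.50 with an offset of 0. Control pools 1 and 2 of Errfi1 were no higher than the dimmest genes above, which reached 6.41 in control pools. So the size of the ratio is not exact, and the standard error does not cover this. In pooled embryos, a change in the number of cells that hold a message and a change in the amount per cell cannot be told apart.

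A ratio of at least 2-fold higher in HP on every array was found for Errfi1 and for no other of the 15 genes, where 0.152% of all tested genes met this rule. Groups without overlap and HP on top were likewise found for Errfi1 alone, against 13.3% of all tested genes. No gene of the 15 had all HP pools below all control pools, against 13.2% of all tested genes. As Errfi1 was chosen by its ratio, nothing is read from its own counts.

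Spry2 and Spry4, the Sprouty inhibitors of receptor tyrosine kinase signalling, had ratios of the opposite sign. Spry2 was at 9.55, 8.84 and 8.96 in HP pools, against 9.95, 9.78 and 9.20 in control pools. Each HP pool was below the control pool of its own array, but the groups overlapped. The log2 ratio was −0.39, −0.94 and −0.24 on the 3 arrays, with a mean of −0.53 ± 0.18 (limma, adjusted p = 0.262, unadjusted p = 0.0436). The dimmer probe of Spry2 gave −0.71, −0.07 and −0.10. It was above background in 1 HP pool and 3 control pools, so it was detected mainly through the control pools and nothing is read from its sign. Spry4 was above background in 1 HP pool and in 3 control pools, so it passed the filter through the control pools alone and no test of it is given. Its signal was 6.53, 6.44 and 6.45 in HP pools, against 6.88, 6.60 and 6.53 in control pools, which met only at 6.53. The mean ratio was −0.20 ± 0.12, and it was −1.05 with the scanner software's ratios.

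Dusp1 and Dusp6 encode phosphatases that inactivate MAPKs, Dusp1 those of the stress pathways as well as ERK, and Dusp6 mainly ERK. Dusp1 had 6.88, 6.67 and 6.66 in HP pools, against 7.63, 6.94 and 6.63 in control pools. The difference came mainly from control pool 1, and replicate 3 showed almost none. Its mean ratio was −0.33 ± 0.19 (limma, adjusted p = 0.392). Dusp6 had 7.38, 6.998 and 6.93 in HP pools, against 7.62, 8.10 and 6.92 in control pools. Here control pool 2 was the high one, the groups overlapped, and the mean ratio was −0.45 ± 0.26 (limma, adjusted p = 0.392). Without replicate 2 the mean of Dusp6 was −0.12, and without replicate 1 that of Dusp1 was −0.12.

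**Figure D2:**
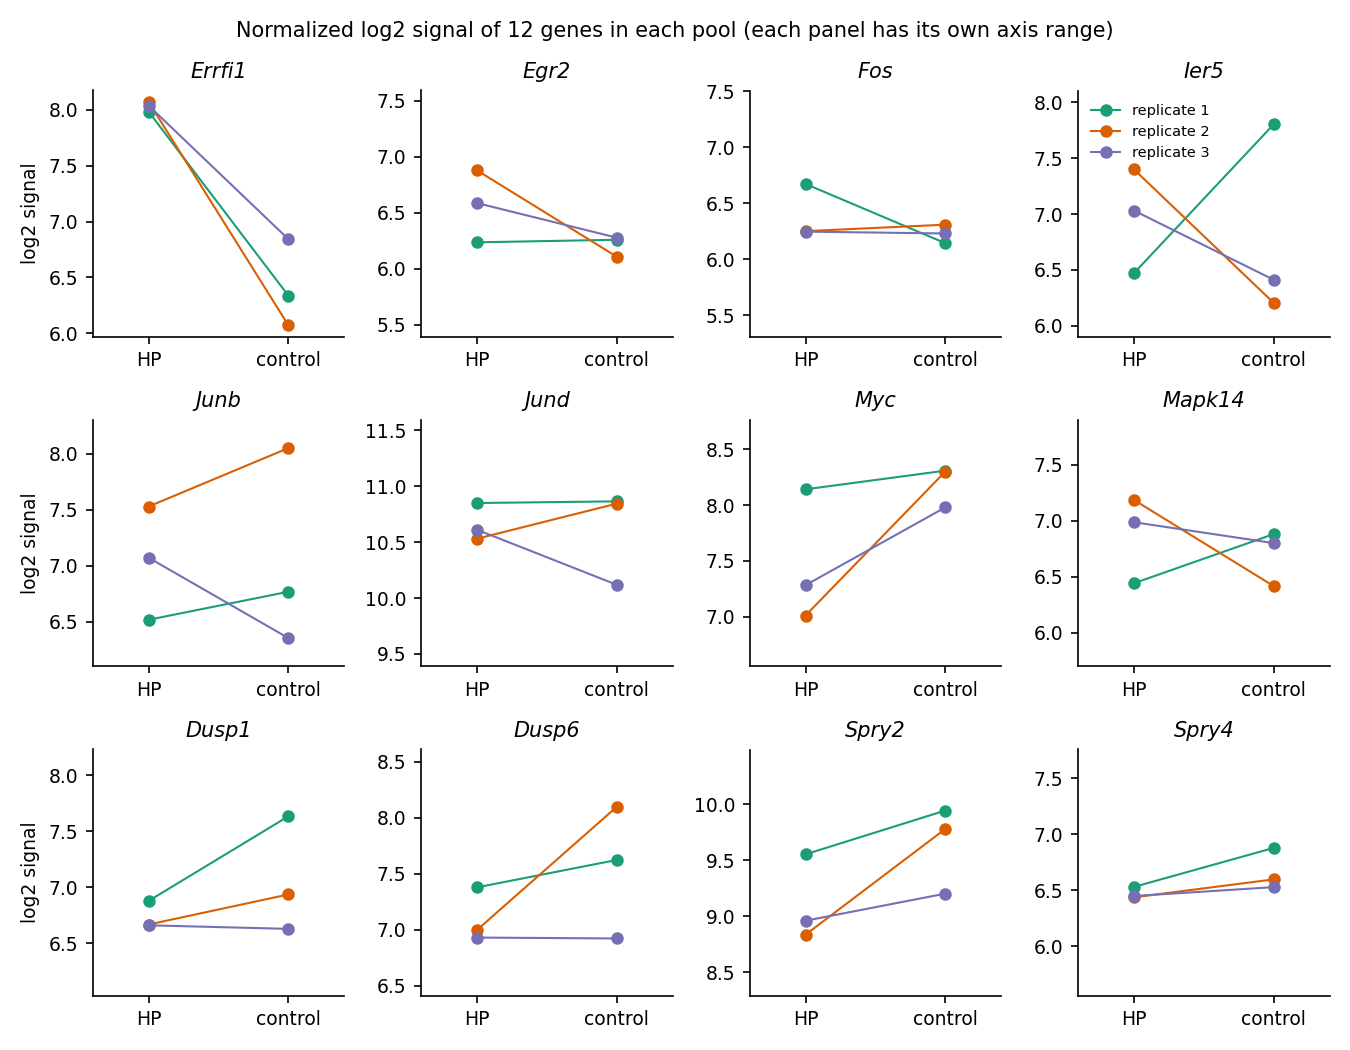
Normalized log2 signal (vertical axis, with its own range in each panel) of 12 genes in HP pools (left) and control pools (right), with lines joining the 2 pools of an array. Errfi1 lies higher in every HP pool (7.98 to 8.07) than in any control pool (6.07 to 6.84), while the lines of Ier5, Junb and Mapk14 run in both directions.

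Of the ErbB receptors, Egfr and Erbb2 gave no signal above background. Erbb3, a receptor with little kinase activity of its own that signals as a partner of other ErbB proteins, was tested by 1 of its 5 probes. That probe is assigned in the array annotation to a predicted transcript and lies at chr10:128069461-128069520 on the minus strand (mm7), 2472 bases from the nearest other Erbb3 probe. It is shown because the value of the gene rests on it.
Erbb3 probe: gttgcagatacacactcattacaagccaat

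The Erbb3 probe had 6.83, 7.65 and 7.42 in HP pools, against 7.76, 7.76 and 7.09 in control pools. The groups overlapped, with a low HP pool 1 and a low control pool 3. Its ratios were −0.93, −0.11 and 0.33 on the 3 arrays, with a mean of −0.23 ± 0.28 (limma, adjusted p = 0.656), which changed sign to 0.11 without replicate 1. The other 4 Erbb3 probes did not pass the filter, and 1 of them was above background in 1 pool, control pool 3. Which exon the tested probe covers was not looked up, since no annotation of its build was used here, and whether it reports Erbb3 was not tested.

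In the kinase cascade, the ERK activators Map2k1 (MEK1) and Map2k2 (MEK2) had the narrowest spread between arrays of the 15 tested genes (SD 0.129 and 0.0986). Map2k1 was at 6.50, 6.51 and 6.43 in HP pools, against 6.38, 6.59 and 6.28 in control pools, with a mean ratio of 0.06 ± 0.11. It was above background in 3 HP pools and 1 control pool, so it passed the filter through the HP pools alone and no test of it is given. Map2k2 was at 6.52, 6.52 and 6.73 in HP pools, against 6.55, 6.72 and 6.76 in control pools, with a mean ratio of −0.09 ± 0.11 (limma, adjusted p = 0.669). For both kinases the groups overlapped and the standard error was larger than the mean ratio. Both signals were dim, and the narrow spread depended on the scaling. With the scanner software's ratios the 3 arrays gave 1.06, −0.21 and 2.67 for Map2k1, and 0.32, −0.87 and −0.13 for Map2k2.

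Mapk14, the stress kinase p38 alpha, was measured by a probe printed at 10 spots. Its signal was 6.44, 7.19 and 6.99 in HP pools, against 6.88, 6.42 and 6.80 in control pools. HP pool 1 was below its control while HP pools 2 and 3 were above theirs, at log2 ratios of −0.44, 0.77 and 0.19. The mean was 0.17 ± 0.27 (limma, adjusted p = 0.735), and it turned to −0.13 without replicate 2 and −0.12 with median centring. Within an array the 10 spots stayed together, from −0.56 to −0.35 on array 1, from 0.55 to 0.998 on array 2 and from 0.11 to 0.24 on array 3. The SD between arrays (0.605) was 6.55 times the mean SD between spots (0.0924).

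For 10 probes of this list that are printed at 10 places, the spread between spots can be set beside the spread between arrays. For Mapk14, Fos, Myc and Egr2 the SD between arrays was 6.55, 6.10, 6.01 and 5.12 times the mean SD between spots. For Mapk8, Jun, Erbb2, both repeated Egfr probes and Mapk3, none of them above background, it was 1.33, 0.516, 0.393, 0.384, 0.267 and 0.167 times. The value of an array is a mean over its spots, while the SD between spots is that of single spots. Spot error alone therefore gives a multiple under 1, and such a multiple does not show that arrays varied less than their spots. The spots of an array share the same pools, amplified RNA and hybridization and are not replicates of the treatment. Their SD leaves out the error of amplification, labelling and hybridization, which lies in the SD between arrays.

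**Figure D3:**
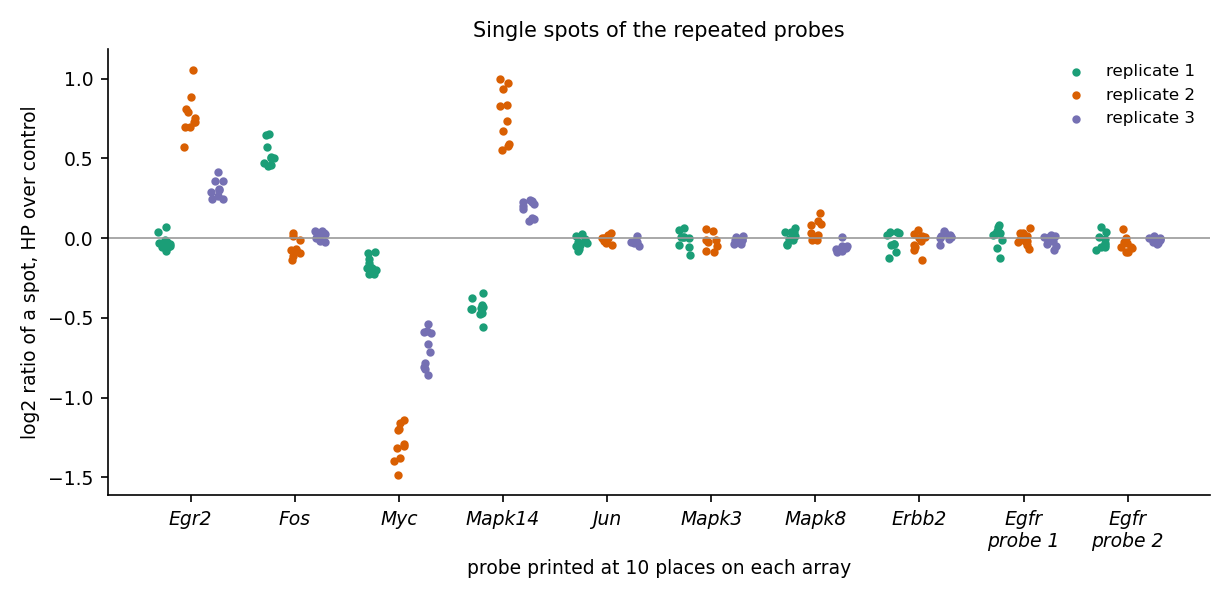
Log2 ratio of HP over control (vertical axis) for each single spot of 10 probes that are printed at 10 places on each array, coloured by replicate. Spots of Egr2, Myc and Mapk14 form separate groups by array and those of Fos lie apart on array 1 alone, while the spots of the 6 probes that were not above background lie between −0.14 and 0.16.

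Another pair of repeated probes belongs to immediate early factors whose signal appeared in HP pools only. The first 30 bases of both are shown, with Egr2 at chr10:67145376-67145435 and Fos at chr12:83478431-83478490, both on the plus strand (mm7).
Egr2 probe: gtagccaaatttcaggtgagaatgtgcttc
Fos probe: ggactttattttccagtagatagaaatcaa

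Egr2, a zinc finger transcription factor of the early growth response family, was at 6.24, 6.88 and 6.59 in HP pools, against 6.26, 6.11 and 6.28 in control pools. HP pools 2 and 3 were above all control pools and HP pool 1 was not. All spots used were above background in these 2 HP pools (10 of 10 in HP pool 2 and 9 of 9 in HP pool 3), and none was in HP pool 1 or in any control pool. So the gene passed the filter through the HP pools alone, and no test of it is given. As the control signal is only a limit, the ratios on arrays 2 and 3 have no exact size. The log2 ratio was −0.02, 0.77 and 0.31, with a mean of 0.35 ± 0.19. With the scanner software's ratios, which replace dim signals by surrogate values, it was −0.04, 4.46 and 3.65.

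Fos, the founding member of the Fos family of AP-1 factors, was above background in HP pool 1 alone, at 9 of 9 spots, and at 0 spots of the other 5 pools. Its signal was 6.67, 6.25 and 6.25 in HP pools, against 6.14, 6.31 and 6.23 in control pools. The log2 ratio was 0.53, −0.06 and 0.02, and the groups overlapped outside HP pool 1. As a single pool passed, the gene was not tested. Thus Fos and Egr2 were above background in different HP pools. Fosl2 and Ier2 were the opposite case, above background in 1 control pool each and in no HP pool. Fosl2 was at 6.47, 6.41 and 6.45 in HP pools, against 6.39, 6.36 and 6.49 in control pools. How many genes of the whole array were above background in 1 group only was not counted, so no trend is read from these genes. Whether 3 of 3 control pools without signal differ from 1 or 2 of 3 HP pools with signal was not tested.

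Egr1, the best known early growth response factor, was not tested either. Its signal was 6.37, 6.57 and 6.38 in HP pools, against 6.30, 6.46 and 6.25 in control pools. The pools of replicate 2 were the highest in both groups, and the ratio was between 0.07 and 0.13 on each array. On arrays 1 and 3 neither channel was above background, so only the ratio of array 2, 0.10, rests on detected signal.

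The Jun family divided into Jun, which was above background in no pool, and Junb and Jund, which were tested. Jund is the member of the family that is expressed without a stimulus in many cells. Its signal was 10.85, 10.53 and 10.61 in HP pools, against 10.86, 10.84 and 10.12 in control pools. Control pool 3 was the only pool under 10.5, and the mean ratio was 0.05 ± 0.19 (limma, adjusted p = 0.891). It was −0.16 without replicate 3 and −0.92 with median centring, a setting that puts the median over all tested genes at −0.39.

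Junb has a pair of probes on the minus strand of chromosome 8 (mm7), at chr8:83563097-83563156 and chr8:83563059-83563118. They overlap, so they are not independent measurements. The last 30 bases of the one and the first 30 of the other are printed, with the 22 shared bases in capitals.
Junb dimmer probe: acacgcacTTCGTGTCTAAAGTCTATTTTA
Junb brighter probe: TTCGTGTCTAAAGTCTATTTTAagatgtgt

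The brighter Junb probe was at 6.52, 7.53 and 7.07 in HP pools, against 6.77, 8.05 and 6.35 in control pools. Replicate 2 had the highest pool of each group, and the groups overlapped. The ratios were −0.25, −0.52 and 0.72, with a mean of −0.02 ± 0.28 (limma, adjusted p = 0.975). The dimmer probe gave −0.13, −0.55 and 0.31, with the same sign on each array. The sign of the mean changed in 6 of 14 other settings, among them the scanner software's ratios with 1.08.

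Ier5, an immediate early gene whose product acts on heat shock factor, had the widest spread of the 15 genes. Its probe lies at chr1:155059487-155059546 on the minus strand (mm7).
Ier5 probe: tacagacgagctctaagtggaaggacctta

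The signal of Ier5 was 6.47, 7.40 and 7.03 in HP pools, against 7.80, 6.20 and 6.41 in control pools. It was above background in HP pools 2 and 3 and in control pools 1 and 2. The ratios of −1.33, 1.19 and 0.62 crossed 0, and the mean was 0.16 ± 0.55 (limma, adjusted p = 0.883). Its SD between arrays, 1.32, was larger than that of 99.2% of the tested genes. Without replicate 1 the mean was 0.91, and without replicate 3 it was −0.07. The related genes Ier2 and Ier3 were not tested. Ier2 had 6.36, 6.35 and 6.47 in HP pools, against 6.42, 6.44 and 6.44 in control pools.

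Nr4a1, an orphan nuclear receptor of the immediate early class, was at 6.61, 6.70 and 6.63 in HP pools, against 6.82, 7.14 and 6.61 in control pools. The groups overlapped through control pool 3, and the mean ratio was −0.21 ± 0.14 (limma, adjusted p = 0.437).

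Myc, a transcription factor of cell growth and a target of the MAPK cascade, had the lowest mean ratio of the 15 genes. Its brightest probe, printed at 10 spots, lies at chr15:62064256-62064316 on the plus strand (mm7).
Myc probe: gttccttctgacagaactgatgcgctggaa

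Myc was at 8.14, 7.01 and 7.28 in HP pools, against 8.31, 8.30 and 7.98 in control pools. HP pools 2 and 3 were below all control pools, and HP pool 1 lay within their range. The log2 ratio was −0.17, −1.29 and −0.69, with a mean of −0.72 ± 0.25 (limma, adjusted p = 0.264, unadjusted p = 0.0447). All 10 spots were above background in every pool. The second probe of Myc gave 0.18, −0.82 and −0.25, and the dimmest probe gave 0.09, −0.07 and −0.02. So the 3 probes had the same order of the arrays, while replicate 1 was above 0 on the other 2 probes.

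**Figure D4:**
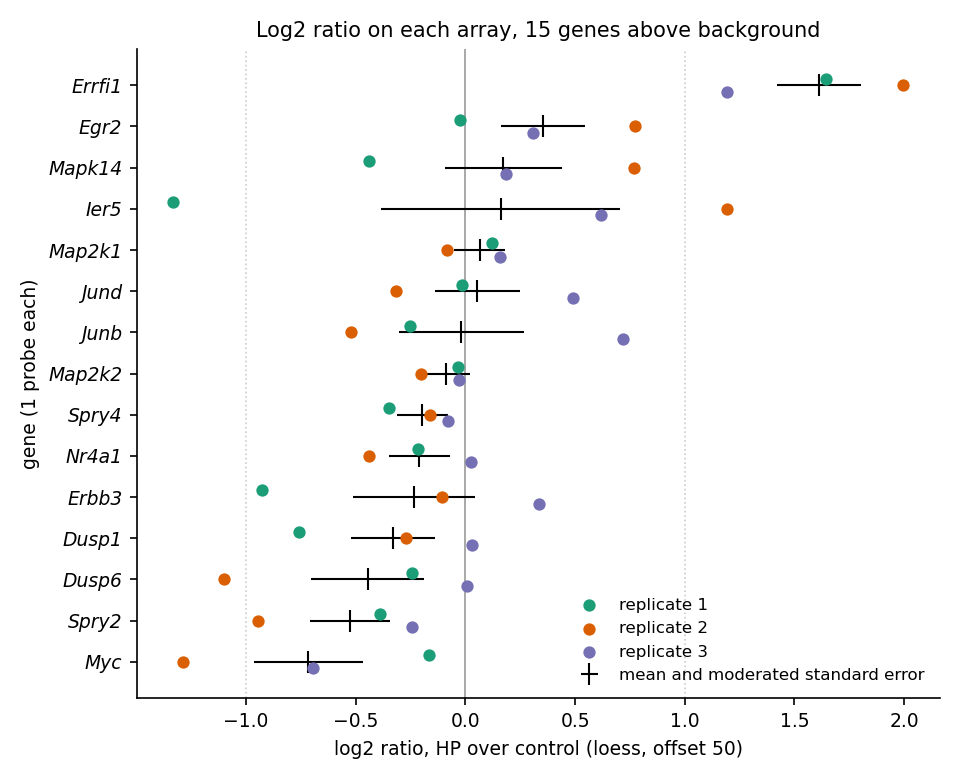
Log2 ratio of HP over control (horizontal axis) on each of 3 arrays (points) for the 15 tested genes, with the mean and its moderated standard error (bars). Dotted lines mark 2-fold. Errfi1 lies beyond the upper line on all 3 arrays, and Myc beyond the lower line on 1.

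Across the 15 tested genes, 6 had a mean ratio above 0 and 9 below 0, against 48.3% above and 51.7% below among all tested genes. With median centring 2 were above 0 and 13 below. Only Errfi1 was above 0 on every array, against 23.2% of all tested genes, and Map2k2, Myc, Spry2 and Spry4 were below 0 on every array, against 25.0%. Apart from Errfi1, 2 of 14 genes had an unadjusted p under 0.05, both lower in HP (Myc and Spry2), against 11.3% of all tested genes in that direction and 7.26% in the other. None had an adjusted p under 0.05 (lowest adjusted p = 0.262, limma). Egr2 and Map2k1 passed the filter through the HP pools alone and Spry4 through the control pools alone, so nothing is read from their place in these counts. Of the 12 genes above background in at least 2 pools of both groups, 4 had a mean ratio above 0 and 8 below 0. On every array 1 was above 0, which was Errfi1, and 3 were below 0.

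The median ratio of the 15 genes was −0.09, against −0.01 over all 7248 tested genes. For the 12 genes that passed the filter in both groups, Errfi1 among them, the median was −0.15. For the 3 that passed in 1 group only the median was 0.06. The 15 include genes chosen or passed by their ratio, so the comparison is a description. By array the median of the 15 genes was −0.25, −0.20 and 0.16. The median SD between arrays was 0.402 for the 15 genes, against 0.280 over all tested genes. The genes that passed the filter are a selected part of the 33, and these values do not describe the rest.

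How large a difference was shown depended on the scaling, as the plot of the mean ratios under 4 ways of scaling shows. The sign was the same in the 15 other settings for Errfi1, Map2k2, Nr4a1, Dusp1, Dusp6, Spry2 and Myc. It was the same in the 14 other settings that kept the gene for Egr2 and Spry4, and it changed in at least 1 setting for Mapk14, Ier5, Map2k1, Jund, Junb and Erbb3. Not every setting could change a sign. Trended and robust moderation and the fit of separate channels leave the mean as it is. The changed filters gave the same mean for each gene they kept, and the series table repeats the scanner software's ratios. Where a channel was dim, the scanner software's ratios were the widest: Egr2 was at 2.69, Ier5 at 1.28, Map2k1 at 1.17 and Spry4 at −1.05. The call of Myc at an unadjusted p under 0.05 held in 6 of 15 other settings and that of Spry2 in 7 of 15. Leaving out a replicate gave unadjusted p-values of 0.00952 to 0.138 for Myc and 0.0623 to 0.136 for Spry2 (limma, 2 arrays each).

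**Figure D5:**
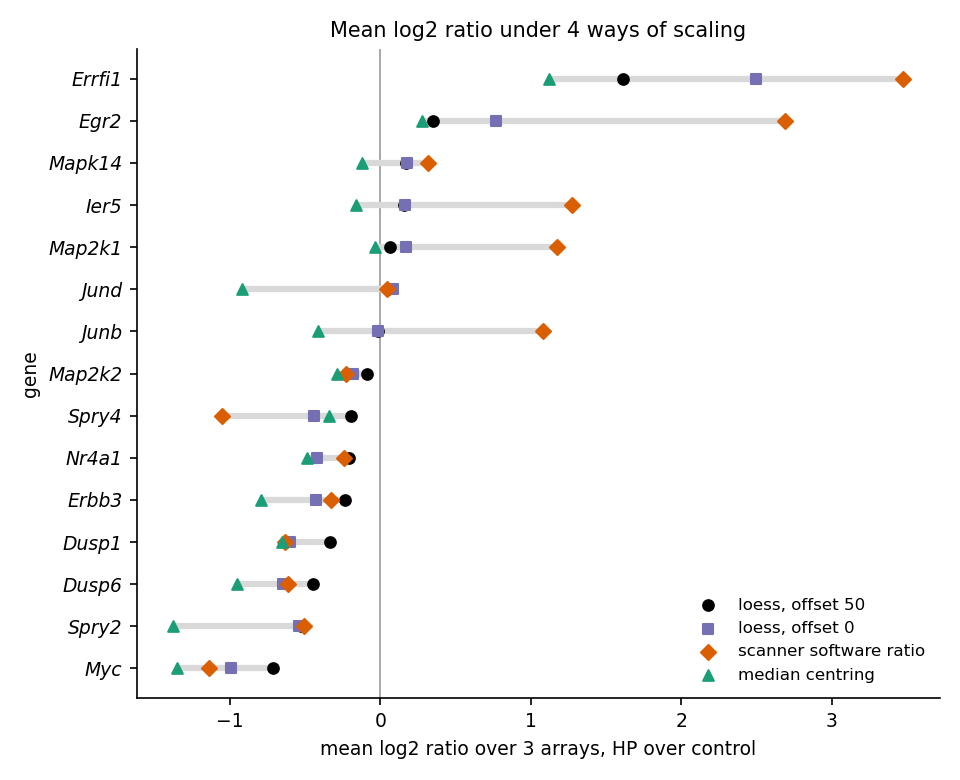
Mean log2 ratio of HP over control over 3 arrays (horizontal axis) for the 15 tested genes under 4 ways of scaling (symbols), with grey bars from the lowest to the highest of the 4. Errfi1 runs from 1.12 to 3.48, and Ier5, Junb, Jund, Map2k1 and Mapk14 have values on both sides of 0.

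The other genes of the pathway were taken from 7 lists of 140 genes, of which 139 were on the array and 79 were tested. Of the 79, 40 were higher and 39 lower in HP, with 15 above 0 and 21 below 0 on every array, against 23.2% and 25.0% of all tested genes. None passed the adjusted test (lowest adjusted p = 0.174, limma), while an unadjusted p under 0.05 was reached by 8 higher and 10 lower genes, against 7.26% and 11.3% of all tested genes. When both channels were required on all arrays, 52 genes were left, with 5 higher and 7 lower unadjusted calls. Among those not kept were Map3k4, Map3k1, Lrig2, Id1 and Dazl, named below. With the scanner software's ratios they were at 1.72, −1.43, −3.64, 1.435 and −2.695. A gene that passed the filter through 1 group alone has its sign tied to the filter. Which of the 79 did so was not counted, so nothing is read from the signs of these named genes. The median ratio of the 79 was 0.005, and with median centring it was −0.38 with 12 genes higher and 67 lower.

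Among the adaptors between receptor and Ras, Ptpn11, the phosphatase SHP2, was at 0.18, 1.79 and 1.35, and Grb2, the adaptor that recruits the Ras activator Sos, at −1.55, −0.11 and −0.51. Their means were 1.11 ± 0.35 and −0.72 ± 0.32, and neither passed adjustment (limma, adjusted p = 0.243 and 0.316). With median centring Ptpn11 was at 0.03 and Grb2 at −1.515. This list had 6 of 10 tested genes higher and 4 lower. Of 9 EGF receptor ligands only Hbegf was tested, at 0.04 ± 0.11.

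In the kinase list, Araf, a kinase that activates Map2k1 and Map2k2, was at −0.56, −0.89 and −1.02 on the 3 arrays. Its mean was −0.82 ± 0.14 (limma, adjusted p = 0.174), and it was below 0 in all 15 other settings, not all of which could change it. Map3k4, a kinase of the stress pathways, was at 0.38 ± 0.11 and Map3k1, which feeds JNK, at −0.39 ± 0.12. This list had 9 of 13 tested genes higher and 4 lower.

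Below the MAPKs, Mknk1 and Mknk2, which phosphorylate the cap-binding factor eIF4E, differed in sign, at −0.53 ± 0.14 and 0.58 ± 0.19. Mknk2 turned to −0.38 with median centring. Max, the partner of Myc, was at −0.16 ± 0.10. That list had 5 of 9 tested genes higher and 4 lower.

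The negative regulators outside the 33 genes were split as 8 higher and 8 lower of 16 tested. Dusp14, a further MAPK phosphatase, was at 0.84, 0.40 and 0.81, with a mean of 0.68 ± 0.14 (limma, adjusted p = 0.177) that turned to −0.20 with median centring. Ptpn1, a phosphatase of receptor tyrosine kinases, was at 0.68 ± 0.22, and at 0.03 with median centring. Spred2, a relative of the Sprouty proteins, was at −0.27 ± 0.12, and Lrig2, a transmembrane protein of the LRIG family, at −0.57 ± 0.17. So the inhibitors of the pathway had ratios on both sides of 0.

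Other early response genes numbered 23 tested, with 11 higher and 12 lower. Klf9 was at −1.01, −1.09 and −0.32 and Klf4 at −0.59, −0.61 and −0.35, both zinc finger factors of the Krüppel-like family. The kinase Plk2 was at −0.54 ± 0.15. On the other side Gadd45b, a stress sensor that acts on p38, was at 0.04, 1.26 and 1.67, Gadd45a, its relative, at 0.33 ± 0.11, and Id1, an inhibitor of helix-loop-helix factors, at 0.37 ± 0.11. Gadd45a turned to −0.02 with median centring, where Id1 was at 0.04. Gadd45b turned to −0.11 where both channels were required on all arrays, which left another of its probes. None of these 6 passed adjustment (limma, lowest adjusted p = 0.19).

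The list drawn around Mos and the oocyte MAPK cascade had 7 tested genes. All 7 had a mean below 0, against 51.7% of all tested genes, and 5 were below 0 on every array, against 25.0%. The list includes cell cycle genes such as Cdk1, Ccnb1, Ccnb2 and Bub1, so the count is not read as a result about Mos. The median of the 7 was −0.20, and −0.54 with the scanner software's ratios. It was −0.06 for the 5 genes left when both channels were required on all arrays. The 6 tested markers of the oocyte and cleavage embryo had a mean above 0, 4 of them on every array, with a median of 0.47, and with median centring 2 were above 0 and 4 below. The part of these markers in the result was not tested. Ccnb2, a B-type cyclin, was at −0.27, −1.32 and −1.24 (mean −0.94 ± 0.26), Bub1, a kinase of the spindle checkpoint, at −0.34, −0.30 and −0.92 (mean −0.52 ± 0.17), and Dazl, an RNA-binding protein that promotes translation in the maturing oocyte, at −0.88, −0.38 and −0.07 (mean −0.44 ± 0.19). Cdk1, the kinase that B-type cyclins activate, was at −0.20 ± 0.12 and Ccnb1 at −0.06 ± 0.10. None passed adjustment (limma, lowest adjusted p = 0.216). The count was 6 of 7 with the scanner software's ratios or without replicate 3, and 5 of 7 without replicate 2 or with replicates 2 and 3 counted as 1. Mos itself was above background in no pool, at 6.33, 6.26 and 6.25 in HP pools, against 6.41, 6.25 and 6.30 in control pools.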

How the data were processed

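Per the labels, RNeasy Plus Micro columns gave total RNA, of which 240 pg per pool went through both rounds of TrueLabeling-PicoAMP amplification and was then coupled to CyDyes. Per the submitters' processing notes, the software for the scans was Agilent Feature Extraction 9.5.1.1. Its mean signal and median local background per spot were deposited as intensity values and were not background-subtracted. Its deposited log10 ratio sets the processed Cy5 signal over the processed Cy3 signal, and the authors' series table repeats these log10 values.

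From the intensity values, limma 3.58.1 in R 4.3.3 applied normexp (offset 50) and loess within arrays, with control spots at weight 0. Outlier spots (208, 172 and 325 on replicates 1, 2 and 3) were left out and spots of a probe averaged. The brightest tested probe stood for a gene, which gave 7248 genes from 8581 probes. Symbols were updated through RefSeq where possible. Levels per pool are after loess and Aquantile scaling. An intercept was fitted to the log2 ratios of 3 arrays with empirical Bayes moderation (2.05 prior degrees of freedom). P-values were adjusted by Benjamini-Hochberg over 7248 genes, with a threshold of 0.05. The array itself pairs each HP pool with the control pool of its replicate number.

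The genes, lists and tests were chosen with earlier results of these data known. All 33 genes are accounted for, and those that passed the filter have their value per array. From each list of other pathway genes, up to 3 per direction with the smallest p among those of 1 sign on all arrays were eligible to be named. Some genes this rule takes are not reported here. Hbegf, Cdk1 and Ccnb1 were named beside them after their values were seen. On data simulated for 7248 genes, a log2 change of 1 was given to 200 genes. It was called after adjustment for 0 of them and at an unadjusted p under 0.05 for 95%. A change of 2 was called after adjustment for 179 of 200, with 9 unchanged genes also called. The simulated ratios were independent between arrays and held no effect of dim signal or dye. So these shares check the fit and do not give the power of these arrays. The other settings were the ratios of the scanner software or of the series table, signals without background subtraction, normexp with an offset of 0, median centring, scaling of the spread between arrays, no detection filter, a filter that asks for both channels on every array, trended and robust moderation, the mean over probes, separate channels with no replicate block, a threshold of 0.1 and leaving out each replicate. Counting replicates 2 and 3 as 1 replicate was chosen after seeing the data.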

Additional observations from a re-analysis of the deposited data

How the results depend on the processing

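The count of genes past adjustment was 0 in every setting run (limma) except median centring, with 1031 of 7248 genes. In that setting 1 of the 14 tested members apart from Errfi1 was called, Spry2 (limma, adjusted p = 0.0465). With so many genes called, this is not read as a result about Spry2. Median centring moved the median of all genes to −0.39. With it, unadjusted calls were 46 higher and 2545 lower, 2-fold genes 1 higher and 336 lower, the members' median −0.41 with 2 higher, and the other pathway genes' median −0.38 with 0 higher and 33 lower unadjusted calls. The scanner software's ratios and the series table each gave 160 higher and 289 lower 2-fold genes and a pathway median of 0.10. No background subtraction gave 23 higher, 41 lower and 0.052. An offset of 0 gave 33 higher and 63 lower 2-fold genes. Scale normalization gave 5 and 9, with 5 higher and 5 lower unadjusted pathway calls. Without a filter, 839 genes were higher at an unadjusted p, 14 of 33 members were higher, and 16 pathway genes were lower. With both channels required, 2 of 9 members and 5 pathway calls were higher. Trended and robust moderation gave 254 higher calls, 3 of them in the pathway lists.

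Leaving out a replicate gave 275 to 781 higher and 428 to 1016 lower unadjusted calls, 22 to 91 higher and 28 to 152 lower 2-fold genes, a members' median of −0.25 to 0.04, 4 to 8 members higher, a pathway median of −0.01 to 0.02, and 2 to 11 higher and 4 to 9 lower pathway calls. Counting replicates 2 and 3 as 1 replicate gave 491 lower unadjusted calls, 20 higher and 27 lower 2-fold genes and 4 higher pathway calls. The fit of separate channels with no replicate block left 0 genes past adjustment, and neither Myc nor Spry2 was then under an unadjusted p of 0.05. The cause of these shifts was not tested.

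Signal over background limits what can be said. Of the 33 genes, 13 were above background in no pool, and for those the arrays give a bound only. Of the 15 tested genes, Myc, Egr2 and Mapk14 were read from repeated spots and the other 12 from 1 spot per array. The same dye carried HP on each array.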
